A study of Homo sapiens with 6 samples.

Results

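Stathmins, neuronal intermediate filaments and the growth cone protein GAP43 were followed in SK-N-BE(2) cells, a human neuroblastoma line, after a hairpin against MYT1. The members are 10 genes, taken by symbol from the deposited table: STMN1, STMN2, STMN3, STMN4, NEFL, NEFM, NEFH, INA, PRPH and GAP43. All 10 were found among the 32434 gene IDs, and all 10 passed the filter on low values, a mean of at least 1 FPKM (fragments per kilobase of exon, scaled to the depth of each library) over the 6 libraries, which left 14106 genes to test. The genes were taken by name, with earlier results of these data known.

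The study sequenced RNA from 3 libraries with a control hairpin (shNC) and 3 with a hairpin against MYT1 (shMYT1). MYT1 encodes a zinc-finger protein that regulates transcription in the developing nervous system. Both groups are this line in the same serum-containing medium. Lentiviral infection lasted 24 h and puromycin selection 48 h. The genotype label and the design text call the shMYT1 cells a knockout, while the treatment text describes a knockdown. The labels do not say how the control cells were infected, do not state that replicates came from separate cultures, and name 1 hairpin label per group, so the p-values rest on library-to-library spread, which may be technical. The title of the series places the work in differentiation and retinoic acid signalling, for which several of the 10 genes serve as neuronal markers.

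Stathmins bind tubulin dimers and favour the shortening of microtubules, and their phosphorylation releases the tubulin. STMN1 is the cytosolic form found in most dividing cells, and STMN2, STMN3 and STMN4 carry an extra membrane-anchoring stretch and are made mainly by neurons. The light, medium and heavy neurofilament chains (NEFL, NEFM, NEFH) assemble with alpha-internexin (INA) or, in peripheral neurons, with peripherin (PRPH) into the filaments that fill axons and set their calibre. GAP43 sits under the membrane of growth cones, binds calmodulin and is a substrate of protein kinase C.

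MYT1 itself was measured at 5.73, 5.12 and 5.18 FPKM in shNC replicates 1 to 3 and at 4.2, 4.13 and 4.36 FPKM in shMYT1 replicates 1 to 3. No shMYT1 library reached the lowest shNC value, with a difference in the means of -20.8%. On the log2(FPKM + 1) scale used for every fold change here, MYT1 fell by 0.28 (SE 0.051, limma adjusted p = 0.0102). MYT1 RNA thus remained at 0.79 of the control mean in the shMYT1 libraries.

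Fragments recovered from the deposited values summed to between 18.16 and 21.68 M per library, with fewer in each shMYT1 library than in any shNC library. Across all tested genes, 24.2% passed at a Benjamini-Hochberg adjusted p under 0.05 (limma, two-sided), 1683 higher and 1737 lower in shMYT1, with 49.2% of calls upward. Rescaling the libraries to a common FPKM total brought the upward share to 36.4%. As a check of the label, all 10 listed markers of sympathetic neuroblasts were above the filter, with 3 higher and 3 lower in shMYT1. The largest changes among them were DBH, from 5.62 to 10.5 FPKM on average, MYCN, from 1892 to 1558 FPKM, and TH, from 168 to 141 FPKM. The 10 listed markers of fibroblasts and smooth muscle summed to 194 to 199 FPKM with the control hairpin and to 151 to 154 FPKM with shMYT1 (3 of 8 tested up, 3 down). LUM, at 97.7 and 54.6 FPKM on average, makes up most of that difference, DCN was at 5.47 and 3.34 FPKM, and the smooth muscle gene TAGLN was higher in shMYT1 (3.13 and 5.01 FPKM). COL1A1 was also lower (26.8 and 23.7 FPKM), while COL3A1 (6.51 and 7.8 FPKM) and ACTA2 (1.77 and 2.96 FPKM) were higher. COL1A2 (0.102 and 0.166 FPKM) and MYH11 (0.144 and 0.157 FPKM) were under the filter. For 6 Schwann cell and glial markers found in the table the sum was 2.27 to 2.44 and 2.71 to 3.42 FPKM, and for 9 epithelial, blood and endothelial markers it was 1.37 to 1.92 and 1.5 to 2.62 FPKM. PECAM1, CDH1, ERBB3 and HBB were listed at 0 in at least 1 library. Their part in the results below was not tested, and in bulk RNA fewer cells of a type and less RNA per cell cannot be told apart.

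Of the 10 genes, 2 rose in shMYT1 (GAP43 and STMN1), 4 fell (STMN4, NEFH, NEFM and INA) and 4 did not pass (STMN2, STMN3, NEFL and PRPH). Over all tested genes 11.9% rose and 12.3% fell. Well-expressed genes were called more often: of the 4825 tested genes averaging 10 FPKM or more, 31.7% passed. The 10 genes are well expressed, ranking between 71 and 4707 by mean FPKM. In 7 of the 10 the groups did not overlap, against 42.3% of all tested genes. Of these 7, 2 were higher in shMYT1 (20.5% of all tested genes) and 5 lower (21.8%). Most differences were small. In absolute log2 fold change the 10 had a median of 0.10, beside 0.11 for all tested genes, and their median was -0.09 beside -0.005. STMN4 stood apart in size, since 37 of the 14106 tested genes moved further in either direction.

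**Figure D1:**
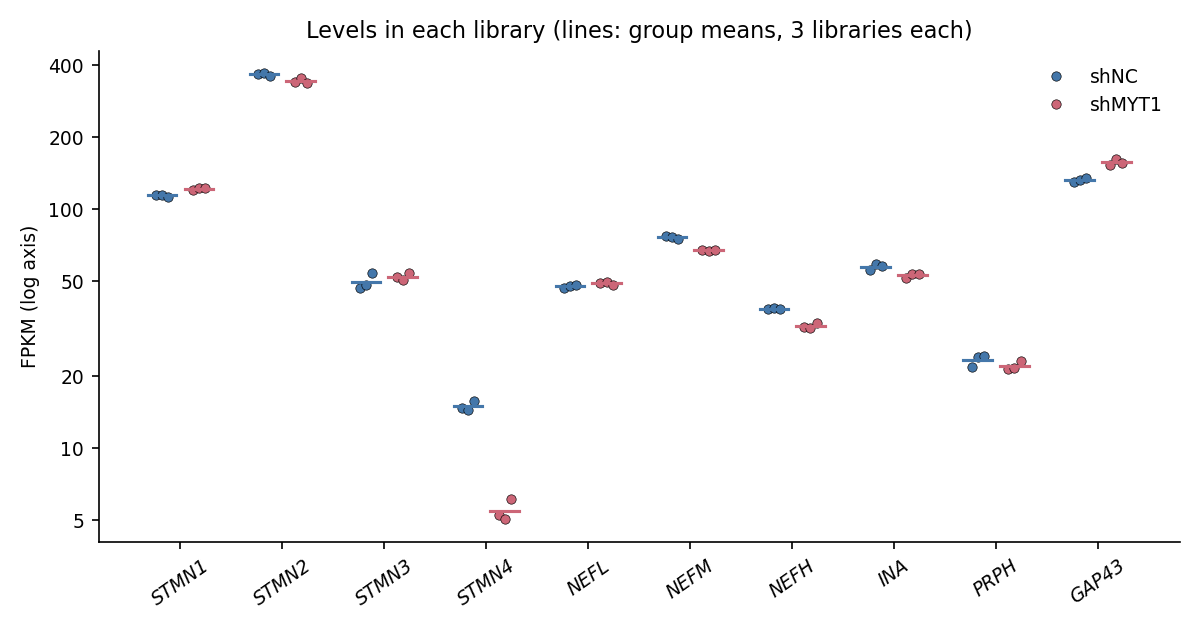
FPKM of the 10 genes on a log axis in each of the 3 shNC (blue) and 3 shMYT1 (red) libraries, with lines at the group means. STMN4 is between 14.5 and 15.7 FPKM in shNC and between 5.05 and 6.12 in shMYT1, while the other 9 genes differ between groups by at most 18.6% in their means.

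Among the stathmins, STMN4 fell by the largest margin. Its levels were 14.8, 14.5 and 15.7 FPKM in shNC and 5.25, 5.05 and 6.12 FPKM in shMYT1. Every shMYT1 library was below every shNC library, with replicate 3 the highest of its group on both sides. The means were 15.0 ± 0.624 and 5.47 ± 0.569 FPKM (SD, n = 3 in each group), a difference of -63.6%. The fitted log2 difference was -1.31 with an SE of 0.067 (95% interval -1.47 to -1.15, limma adjusted p = 0.00011). Behind these values lay 1005 to 1086 fragments per shNC library and 294 to 358 per shMYT1 library. Spread between replicates was 4.15% of the mean in shNC and 10.4% in shMYT1. Counting alone gives about 3.81% at the mean number of STMN4 fragments over all 6 libraries. Each shMYT1 library held fewer fragments than that mean, so counting gives more than 3.81% there and less in shNC. Leaving out any 1 library gave log2 fold changes between -1.38 and -1.26, all past the threshold.

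STMN2, the most abundant of the 10 in FPKM, was close to the threshold without passing it. It was measured at 368, 371 and 360 FPKM in shNC and at 340, 355 and 336 FPKM in shMYT1. The groups did not overlap, but the gap between them (360 against 355 FPKM) was smaller than the spread within shMYT1. Group means were 366 ± 5.78 and 343 ± 9.78 FPKM (SD, n = 3 each), and the log2 fold change was -0.09 (95% interval -0.16 to -0.02, limma adjusted p = 0.0594). Without shMYT1 replicate 2 the value was -0.12 and passed (limma adjusted p = 0.0359). It also passed with the libraries rescaled to a common FPKM total (-0.13, limma adjusted p = 0.0205). Its sign turned once the change of its chromosomal neighbours was subtracted, as described further on.

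STMN1, the stathmin of proliferating cells, rose slightly. Its levels were 115.0, 115.1 and 112.8 FPKM in shNC and 120.2, 122.3 and 122.5 FPKM in shMYT1. All shMYT1 values lay above all shNC values, and each group spanned less than the distance between them. The fitted log2 difference was 0.09 with an SE of 0.023 (95% interval 0.03 to 0.14, limma adjusted p = 0.0319). This call was lost on leaving out any 1 of the 6 libraries (adjusted p 0.0573 to 0.0919, log2 fold change 0.08 to 0.10) and on rescaling to a common FPKM total (0.05, limma adjusted p = 0.134).

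STMN3 did not separate the groups. It was at 46.9, 48.4 and 53.9 FPKM in shNC and at 51.9, 50.4 and 54.1 FPKM in shMYT1. The shNC value of replicate 3 lay inside the shMYT1 range. Its log2 fold change was 0.07 (95% interval -0.06 to 0.20, limma adjusted p = 0.424), so a change of up to 0.20 upward is inside the interval.

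Sequence upstream of the start is shown for the 3 genes past the threshold for which the RefSeq promoter table (GRCh38.p14) held a window, 2 that rose and 1 that fell. Windows were found for 5 of the 10 genes. Each line runs 5′ to 3′ on the gene's strand and stops at the RefSeq start or at the first annotated exon base met before it, and capitals mark CACGTG, the core element bound by MYC family factors such as MYCN (a search added after the data were seen). The stretches are chr1:25906467-25906669 (minus strand) for STMN1, chr3:115623260-115623323 (plus strand) for GAP43 and chr10:103276888-103277137 (plus strand) for INA. The STMN1 stretch lies inside the annotated gene, since another exon of STMN1 is annotated further upstream.
STMN1: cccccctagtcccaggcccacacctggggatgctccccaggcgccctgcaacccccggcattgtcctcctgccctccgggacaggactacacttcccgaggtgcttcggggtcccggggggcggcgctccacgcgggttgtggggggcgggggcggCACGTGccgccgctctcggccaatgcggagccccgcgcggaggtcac
GAP43: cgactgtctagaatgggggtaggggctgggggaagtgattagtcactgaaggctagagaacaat
INA: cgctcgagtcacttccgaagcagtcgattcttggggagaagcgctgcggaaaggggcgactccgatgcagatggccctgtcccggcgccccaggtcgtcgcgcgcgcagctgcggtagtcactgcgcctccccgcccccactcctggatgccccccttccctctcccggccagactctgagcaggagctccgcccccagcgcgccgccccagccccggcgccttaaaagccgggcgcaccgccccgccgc

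The whole windows cover 250 bases before the start and 50 after it, and were searched on both strands. AAGTT, the core read by MYT1 family zinc fingers, had 0 matches in each of the 5 windows (STMN1, STMN3, INA, PRPH and GAP43), while 34.0% of all 35116 windows hold at least 1. The 5 windows have a GC content of 72.7, 77.7, 71.3, 67.0 and 52.7% in that order, against a median of 58.7% over all windows, so the share is not one of windows with like composition. The retinoic acid response element of the DR5 type, a direct repeat of AGGTCA with a 5-base spacer, also had 0 matches in the 5, and 2 of all windows hold it. CACGTG occurred at 2 places in the STMN1 window, 1 of them whole in the stretch printed, and at 0 in the other 4. Of all windows, 7.26% hold a match. That share, too, is not one of windows with a GC content like that of STMN1 (72.7% against the median of 58.7%). These are matches of letters in a short window and show no binding.

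Neurofilament chains did not change alike. NEFH, the heavy chain, was at 38.4, 38.5 and 38.1 FPKM in shNC and at 32.1, 31.8 and 33.6 FPKM in shMYT1. The groups were far apart relative to their spread, which was 0.190 FPKM in shNC and 0.959 FPKM in shMYT1 (SD, n = 3 each). NEFH fell by 0.23 on the log2 scale (SE 0.029, 95% interval -0.30 to -0.16, limma adjusted p = 0.00243), a difference in the means of -15.3%. It passed with every library left out in turn (adjusted p 0.00448 to 0.0147).

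NEFM, the medium chain, was at 77.2, 76.8 and 74.7 FPKM in shNC and at 67.3, 66.8 and 67.5 FPKM in shMYT1. The SD of the 3 shMYT1 libraries was 0.577% of their mean, and all 3 were below every shNC library. On the log2 scale the difference was -0.18 with an SE of 0.024 (95% interval -0.24 to -0.12, limma adjusted p = 0.00319). Of its exon bases, 38.9% are shared with AF106564.1 on the opposite strand, a gene at 2.88 FPKM in shNC and 2.61 FPKM in shMYT1, and no strand setting is stated.

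NEFL, the light chain that neurofilaments need to assemble, was at 47.0, 47.6 and 48.1 FPKM in shNC and at 48.9, 49.8 and 48.1 FPKM in shMYT1. Replicate 3 of shMYT1 lay among the shNC values. Its log2 fold change was 0.04 (95% interval -0.02 to 0.10, limma adjusted p = 0.314), and the interval does not reach the sizes measured for NEFM and NEFH. The ratio of NEFL to NEFM within a library needs no scaling between libraries. As log2 it was -0.72, -0.69 and -0.64 in shNC and -0.46, -0.42 and -0.49 in shMYT1, a difference of 0.22. The groups did not overlap, and p was 0.1 by a two-sided exact permutation test, its lower limit with 3 libraries a side (adjusted p = 0.2 over 8 ratios).

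INA, alpha-internexin, fell slightly, from 55.5, 58.9 and 57.7 FPKM in shNC to 51.8, 53.8 and 53.4 FPKM in shMYT1. The groups did not overlap. On the log2 scale INA differed by -0.11 with an SE of 0.032 (95% interval -0.19 to -0.04, limma adjusted p = 0.0446), just inside the threshold. The INA call held without shNC replicate 1 (adjusted p = 0.0443) and was lost without shNC replicate 2 (0.144), shNC replicate 3 (0.0879), shMYT1 replicate 1 (0.139), shMYT1 replicate 2 (0.0705) or shMYT1 replicate 3 (0.0912).

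PRPH, peripherin, was at 22.0, 24.0 and 24.3 FPKM in shNC and at 21.6, 21.6 and 23.1 FPKM in shMYT1. Replicate 1 of shNC fell within the shMYT1 range. The log2 fold change of -0.08 did not pass (95% interval -0.20 to 0.03, limma adjusted p = 0.274). Its exon model is uncertain in assignment, since 56.2% of its bases are shared with AC125611.4 on the opposite strand, a gene at 0.977 FPKM in shNC and 0.806 FPKM in shMYT1.

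GAP43 rose. It was measured at 130.2, 133.0 and 134.4 FPKM in shNC and at 153.5, 162.1 and 156.1 FPKM in shMYT1. The lowest shMYT1 library was well above the highest shNC library. The means were 133 ± 2.16 and 157 ± 4.37 FPKM (SD, n = 3 each), 18.6% apart, with a log2 fold change of 0.24 (SE 0.029, 95% interval 0.18 to 0.31, limma adjusted p = 0.00187). The call held in all 16 alternative fits, with log2 fold changes between 0.20 and 0.29. Set against STMN2, another transcript of growing neurites, the log2 ratio was -1.5, -1.48 and -1.42 in shNC and -1.15, -1.13 and -1.11 in shMYT1. That ratio differed by 0.34 with no overlap (exact permutation p = 0.1, adjusted p = 0.2 over 8 ratios).

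**Figure D2:**
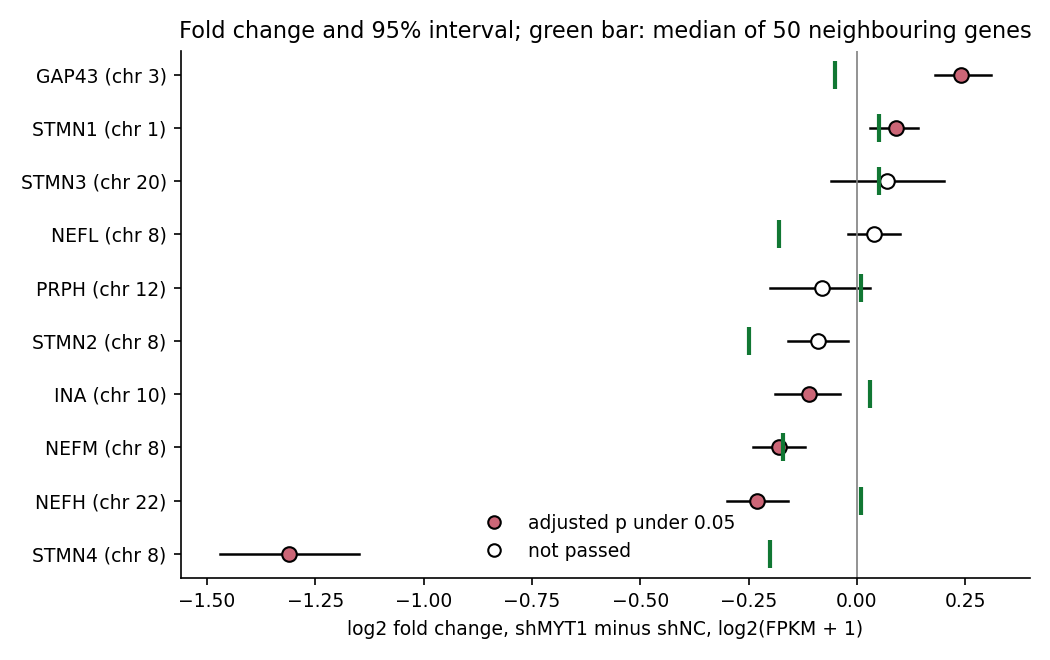
Log2 fold change (shMYT1 minus shNC, log2(FPKM + 1)) of each gene with its 95% interval, filled where the adjusted p was under 0.05, and with a green bar at the median of its 50 nearest tested genes. GAP43 at 0.24 and NEFH at -0.23 lie away from their neighbours, while NEFM at -0.18 sits on a neighbour median of -0.17.

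Of the 8 within-library ratios, 4 had no overlap between groups: STMN4 to STMN2 (difference -1.37), STMN1 to STMN2 (0.18), NEFL to NEFM (0.22) and GAP43 to STMN2 (0.34). For single genes the groups did not overlap in 42.3% of all tested genes, and no such share was computed for ratios. All of these but NEFL to NEFM are set against STMN2, whose own groups did not overlap, so they are not separate observations. The ratios of NEFH, INA and PRPH to NEFM differed by -0.06, 0.07 and 0.10 and overlapped, as did STMN3 to STMN2 (0.16). With 3 libraries against 3 no single ratio can pass 0.05.

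The order of levels was similar in both groups. In shNC it ran STMN2, GAP43, STMN1, NEFM, INA, STMN3, NEFL, NEFH, PRPH and STMN4, and only STMN3 and NEFL overlapped as neighbours in the order. The shMYT1 order was the same, and there INA (53.0 ± 1.1 FPKM) and STMN3 (52.1 ± 1.84 FPKM) overlapped (SD, n = 3 each). FPKM divides by all annotated exon bases of a gene, and for STMN1 these (6261) far exceed its principal transcript (1712), whereas for STMN2 they are close (2362 and 2223). Per length of the principal transcript, a scale chosen after the data were seen, STMN1 was above STMN2: 418 ± 4.71 against 389 ± 6.14 in shNC and 445 ± 4.64 against 365 ± 10.4 in shMYT1 (SD, n = 3 each). The order of STMN1 and STMN2 thus depends on the length used.

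Family make-up shifted modestly. STMN4 formed 2.72, 2.65 and 2.90% of the summed stathmin FPKM in shNC and 1.01, 0.948 and 1.18% in shMYT1. STMN1 formed 21.1, 21.0 and 20.8% in shNC and 23.2, 23.0 and 23.6% in shMYT1. Both shares separated the groups, while those of STMN2 (67.2 and 65.7% on average) and STMN3 (9.13 and 9.98%) overlapped. The summed stathmin level was 542 to 549 FPKM in shNC and 517 to 532 FPKM in shMYT1, a difference of -22.6 FPKM. Per principal transcript length the shares on average were 46.7 and 50.1% for STMN1 and 43.4 and 41.1% for STMN2, both without overlap, 2.41 and 0.888% for STMN4, also without overlap, and 7.47 and 7.90% for STMN3, with overlap. On that scale the sums overlapped (890 to 901 and 878 to 899), with a difference of -7.93.

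Among the 5 filament genes the summed level was 243 ± 2.82 FPKM in shNC and 224 ± 2.03 FPKM in shMYT1 (SD, n = 3 each), with no overlap. NEFL formed 19.6, 19.4 and 19.8% of that sum in shNC and 22.1, 22.3 and 21.3% in shMYT1. The shares of NEFM (30.7 to 32.2% in shNC and 29.8 to 30.4% in shMYT1) and NEFH (15.7 to 16% and 14.2 to 14.9%) were lower in every shMYT1 library. Those of INA (means 23.6 and 23.7%) and PRPH (9.64 and 9.87%) overlapped.

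**Figure D3:**
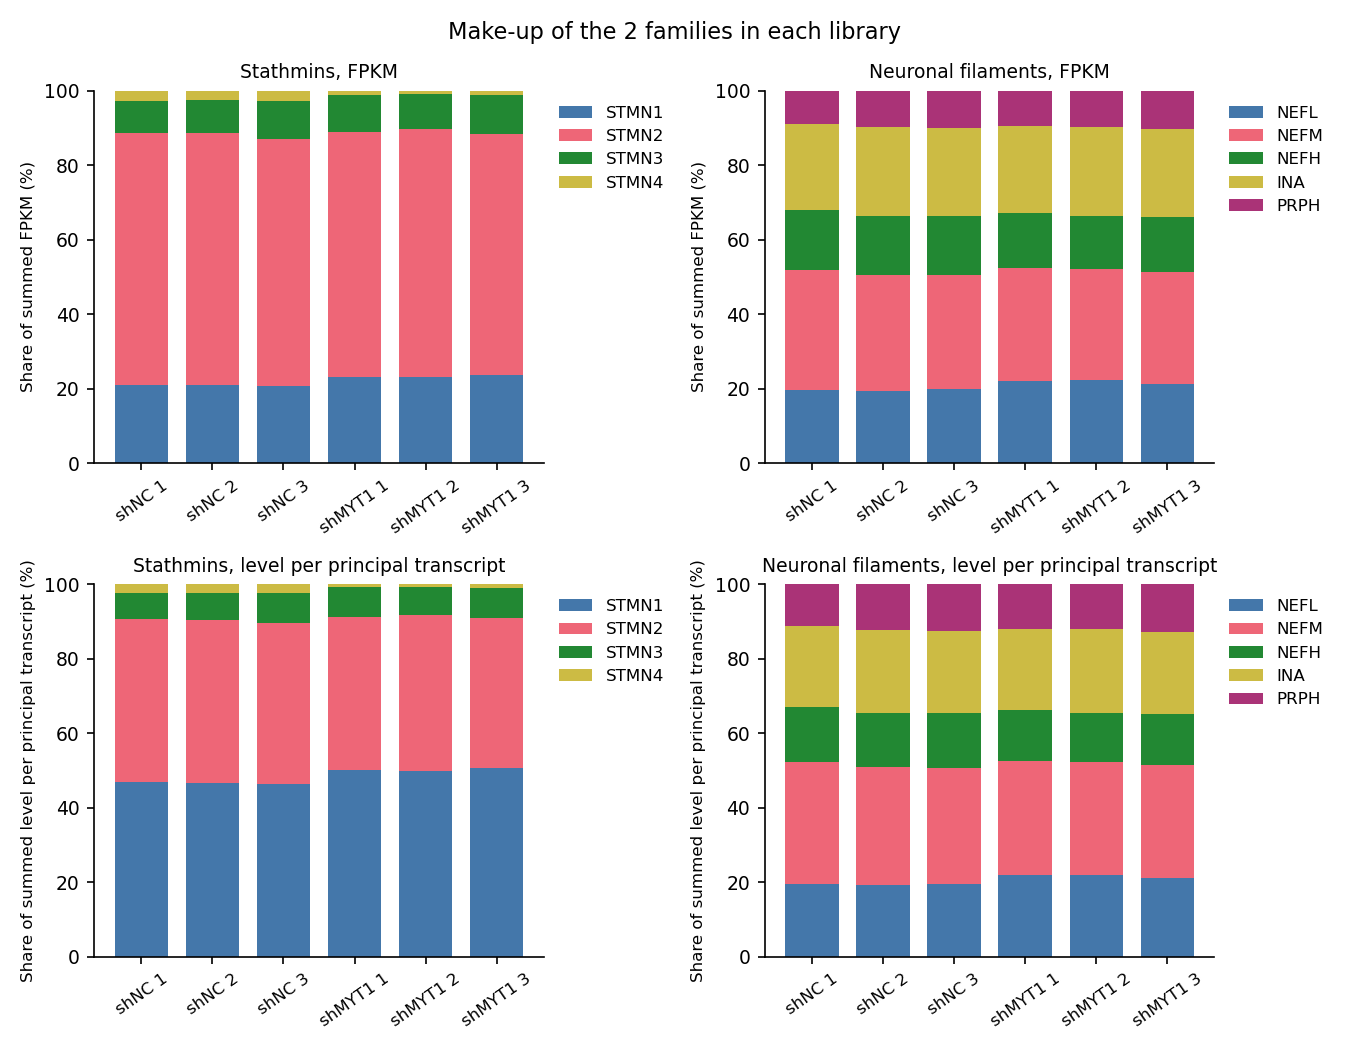
Share of each gene in the sum of its family (percent), for the stathmins and the 5 filament genes, in each of the 6 libraries. Upper panels use FPKM and lower panels use levels per principal transcript length. In the FPKM panels STMN4 takes 2.65 to 2.90% of the stathmin sum in shNC and 0.948 to 1.18% in shMYT1. There NEFL takes 19.4 to 19.8% of the filament sum in shNC and 21.3 to 22.3% in shMYT1.

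STMN2, STMN4, NEFL and NEFM lie on chromosome 8, and their surroundings differed between the groups. Among the 50 tested genes nearest to STMN2 (25 on each side), 27 fell and 3 rose, with a median log2 fold change of -0.25. Around STMN4, 25 fell and 2 rose (median -0.20), around NEFL 24 fell and 3 rose (median -0.18), and around NEFM 23 fell and 3 rose (median -0.17). The windows of NEFL, NEFM and STMN4 share genes, so these are not separate observations. The medians around the other 6 genes lay between -0.05 and 0.05.

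Against those neighbours the 4 genes took different places. STMN4 was lower than each of its 50 neighbours and stayed at -1.11 after their median was subtracted. NEFM lay in the middle, with 25 of 50 neighbours lower, and its value became -0.01 (limma adjusted p = 0.769). NEFL had 42 of 50 neighbours lower and became 0.22 (limma adjusted p = 0.00235). STMN2 had 39 of 50 lower and turned to 0.16 (limma adjusted p = 0.0134). These adjusted p-values treat the medians as known. Off chromosome 8, NEFH was below all but 3 of its neighbours and GAP43 above 47 of 50, and both kept their calls, as did INA (-0.14, limma adjusted p = 0.025). STMN1 lost its call (0.03, limma adjusted p = 0.357). A change in the number of copies of a region and a change in its transcription cannot be told apart in these libraries.

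**Figure D4:**
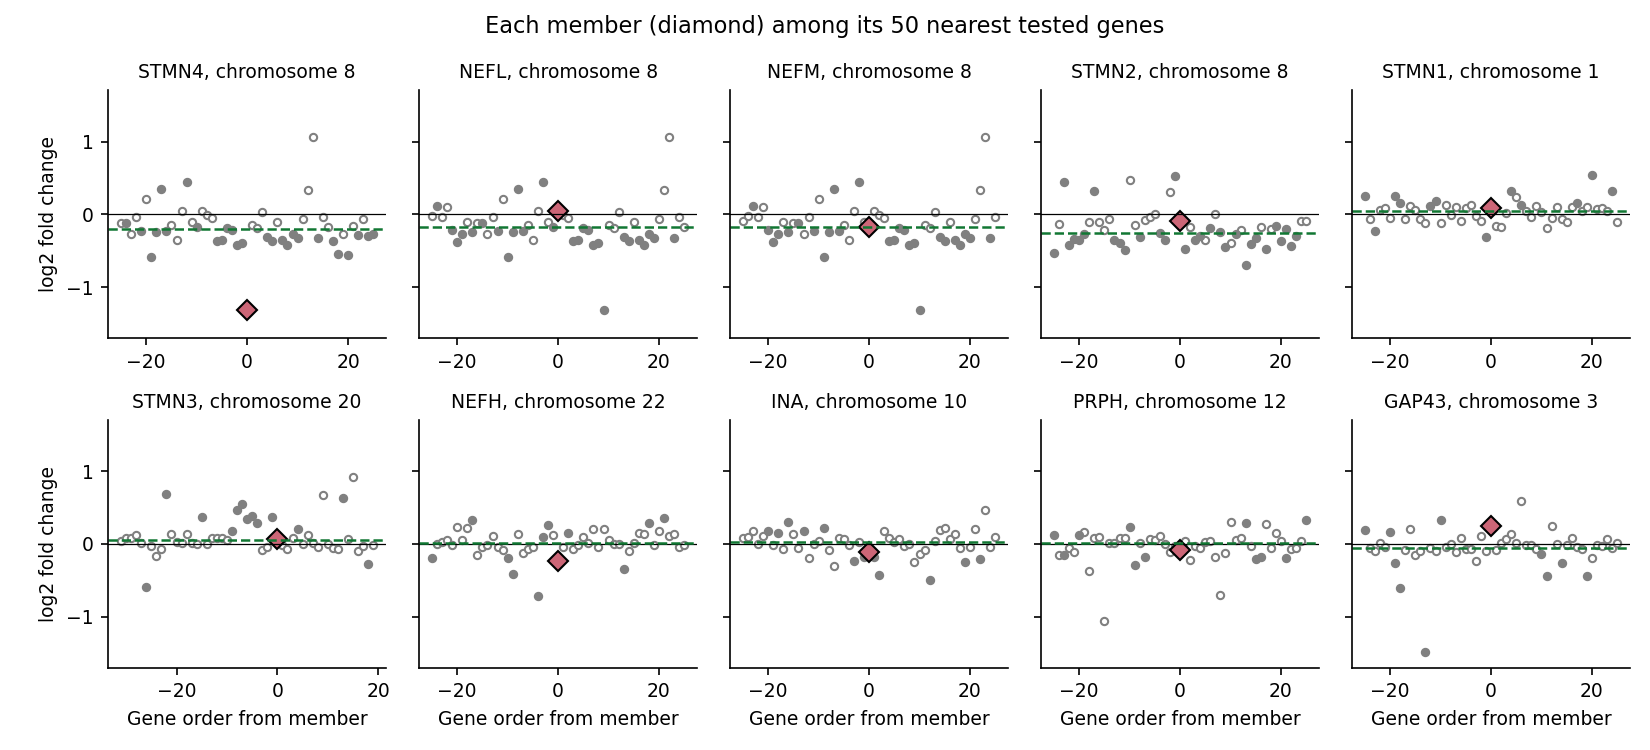
Log2 fold changes of the 50 tested genes nearest to each of the 10 genes (grey), their median (green) and the gene itself. STMN4 at -1.31 lies below all 50 of its neighbours, while NEFM at -0.18 lies in the middle of its own.

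The nearest patterns over the 6 libraries were sought for GAP43 and STMN4, by the root-mean-square difference of centred log2(FPKM + 1) values. For GAP43 they were PPP2R5C (0.008), PIP4K2A (0.015) and RPL5 (0.017), whose log2 fold changes were 0.24, 0.25 and 0.24. For STMN4 they were GALNT13 (0.103), PROK2 (0.113) and GPC3 (0.135), at -1.25, -1.37 and -1.41. With 6 libraries in 2 groups, any gene of similar fold change scores as alike.

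Genes that work with these proteins were read from lists chosen by function. Beside each list stand the shares over all tested genes, 11.9% rising and 12.3% falling. Among tested genes averaging 10 FPKM or more, 31.7% passed in either direction. Of 6 tested intermediate filaments and lamins outside the 10, 2 rose, 1 fell and 3 did not pass (median log2 fold change 0.00). VIM, the vimentin of immature and mesenchymal cells, rose from 129 ± 2.42 to 153 ± 3.05 FPKM (0.24, limma adjusted p = 0.00151). LMNA, the A-type lamin, rose from 47.0 ± 1.64 to 53.5 ± 2.07 FPKM (0.18, limma adjusted p = 0.0169), a call lost without shNC replicate 1 (0.0603) or shNC replicate 2 (0.0646). LMNB2, a B-type lamin, fell from 103 ± 4.95 to 83.7 ± 3.23 FPKM (-0.30, limma adjusted p = 0.00454). Its neighbour median was -0.11, and its value was -0.19 once that median was subtracted. The SDs in these lists are over n = 3 libraries per group.

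Of 16 tested linkers, motors and turnover factors of filaments, 2 rose and 4 fell (median -0.03). ANK2, an ankyrin that ties membrane proteins to the axonal skeleton, fell by 0.46 (10.9 ± 0.311 to 7.67 ± 0.243 FPKM, limma adjusted p = 0.000571). MYO5A, a myosin motor that binds neurofilaments, fell by 0.46 (limma adjusted p = 0.00137), and KIF5C, a neuronal kinesin, fell by 0.27 (limma adjusted p = 0.00168). Of 22 kinases and phosphatases that act on filaments or stathmins, 2 rose and 5 fell (median -0.04). CDK5R1, the p35 activator of CDK5, fell by 0.29 (limma adjusted p = 0.0124) and CAMK4 fell by 0.27 (limma adjusted p = 0.00537). PPP2R1A, the scaffold of phosphatase 2A, rose by 0.34 (limma adjusted p = 0.0016), beside a neighbour median of 0.22, and did not pass once that median was subtracted (0.11, limma adjusted p = 0.0902).

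Of 18 tested genes for growth cone membrane proteins, calmodulins, protein kinase C forms and related proteins, 4 rose, 0 fell and 14 did not pass (median 0.06). Over all tested genes 11.9% rose and 12.3% fell. CALM3, a calmodulin gene, rose from 40.7 ± 0.921 to 58.3 ± 0.615 FPKM (0.51, limma adjusted p = 0.000122), in a region whose neighbour median was 0.33. PRKCA, protein kinase C alpha, rose from 9.76 ± 0.0233 to 12.9 ± 0.226 FPKM (0.37, limma adjusted p = 0.000508). GNAO1, the G protein alpha subunit of growth cones, rose by 0.28 (limma adjusted p = 0.00187).

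Of 19 regulators of neuronal transcripts, 2 rose and 5 fell (median -0.01). The ELAV RNA-binding proteins, which include stabilisers of GAP43 mRNA, moved in both directions. ELAVL3 fell by 0.37 (44.7 ± 1.66 to 34.3 ± 0.947 FPKM, limma adjusted p = 0.00101), ELAVL1 fell by 0.32 (limma adjusted p = 0.00127) and ELAVL2 fell by 0.32 (limma adjusted p = 0.00897). Their neighbour medians were -0.10, -0.10 and -0.08 in that order. With these subtracted the values were -0.27, -0.22 and -0.23, each still past the threshold. ELAVL4, singled out after its values were seen, rose from 35.8 ± 1.47 to 44.3 ± 1.29 FPKM (0.30, limma adjusted p = 0.00268). Of 19 tested genes of axon injury and regrowth, 6 rose and 3 fell (median -0.05). L1CAM, an axonal adhesion molecule, rose by 0.48 (28.4 ± 1.05 to 39.9 ± 0.902 FPKM, limma adjusted p = 0.000408), and DPYSL3, a collapsin response mediator, rose by 0.41 (limma adjusted p = 0.000145). ATF3, a transcription factor induced by axon injury, fell by 0.60 (3.65 ± 0.26 to 2.06 ± 0.0887 FPKM, limma adjusted p = 0.00106). Exons of VIM, PPP2R1A, CALM3, GNAO1, ELAVL1 and L1CAM overlap a gene on the opposite strand, and those of LMNB2, ELAVL3 and L1CAM one on the same strand, so their reads may be shared.

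Read assignment among the 10 genes was examined in the annotated transcripts. The longest run identical between paralogs was 13 to 20 bases among the stathmins and 14 to 25 bases among the filaments. Of all 50-base windows, none in STMN2, STMN4, NEFL, INA or GAP43 recurred on the same strand of another gene. The share was 1.34% for STMN1, 0.738% for STMN3, 0.135% for NEFM, 2.59% for NEFH and 0.225% for PRPH. For NEFH, pseudogene NEFHP1 held 1.53%. On the opposite strand, 9.98% of the NEFL windows recurred in AC107373.2 and 7.43% of the NEFH windows in AC000035.1. For NEFM the share in AF106564.1 was 37.2%, and for PRPH the share in AC125611.4 was 43.9%. With no strand setting stated, reads of these 4 genes may be shared with the opposite strand.

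**Figure D5:**
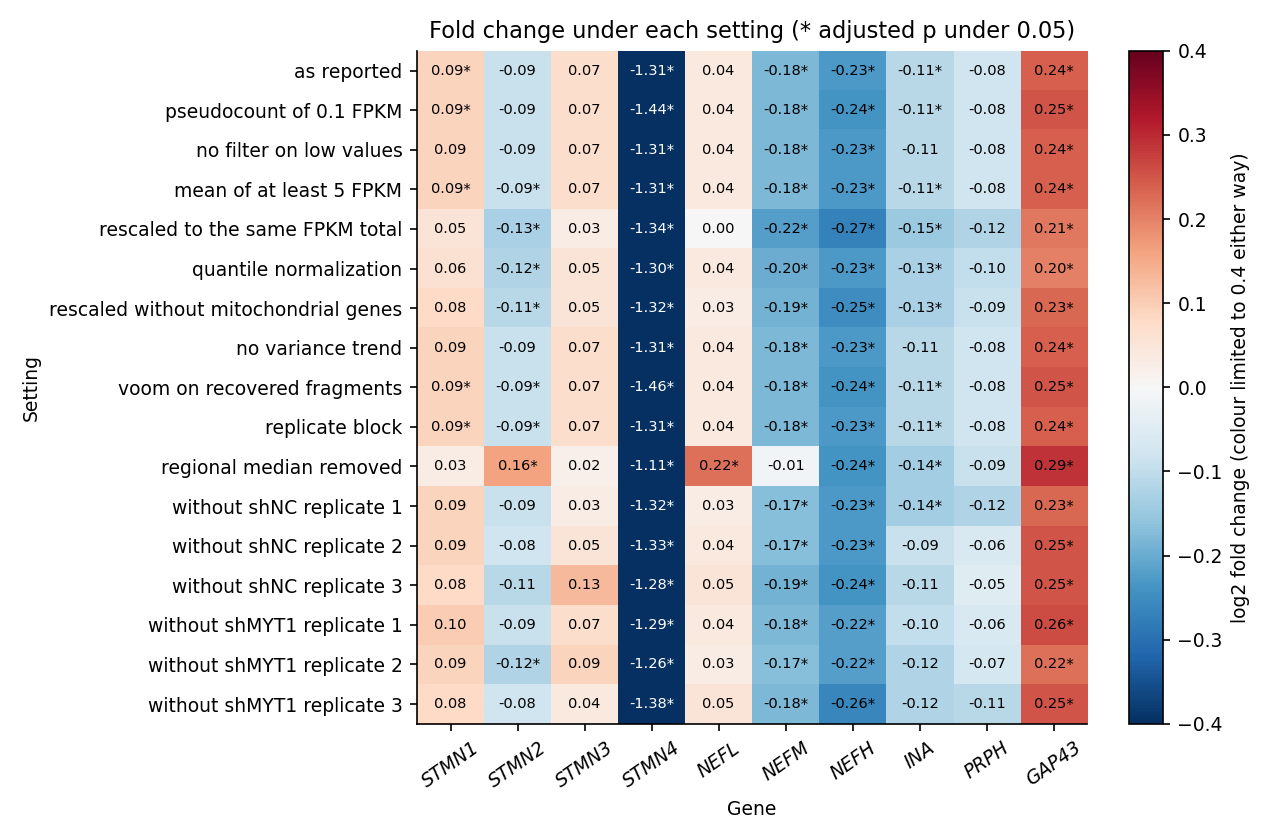
Log2 fold change of each of the 10 genes in the 6-library fit and in 16 alternative fits. STMN4 stays between -1.46 and -1.11, GAP43 between 0.20 and 0.29 and NEFH between -0.27 and -0.22, while STMN2 runs from -0.13 to 0.16.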

How the data were processed

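RNA from 6 SK-N-BE(2) libraries (3 shNC, 3 shMYT1) was sequenced after NEBNext Ultra preparation, per the labels' protocols. The authors deposited 1 table of FPKM values per gene, made with HISAT2 2.0.5, featureCounts 1.5.0-p3 and hg38, per the submitters' processing notes. Which annotation, strand option or filter was used is not given in the sources. GENCODE 29 held 99.59% of the 32434 IDs and supplied names, coordinates (GRCh38) and exon lengths. With those lengths the FPKM steps gave whole fragments, within 0.01, in all 6 libraries for 95.4% of the IDs found. Rounded fragments summed over all IDs found, whole or not, came to 18.16 to 21.68 M per library. The steps themselves correspond to depths of 17.68 M (shMYT1 replicate 2) to 21.48 M (shNC replicate 1), used as library sizes for voom. Fragment numbers of MYT1 were not whole and are not printed.

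Differences were tested on log2(FPKM + 1) with limma 3.58.1 (R 4.3.3) with a variance trend, on genes averaging 1 FPKM or more, with Benjamini-Hochberg adjustment over all of them and a threshold of 0.05. The fitting code was tested on simulated data. Fold changes understate those of low genes. Ratios between genes used FPKM without a pseudocount and exact two-sided permutation tests. Shares were computed within each library. The labels do not state that replicate numbers pair the libraries, and the main fit has no block.

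The text names the 10 genes, MYT1, up to 3 passing genes with the largest absolute fold change per list, and the 3 protein-coding genes most like GAP43 and STMN4. Outside that rule, PECAM1, CDH1, ERBB3 and HBB (listed at 0 in a library) and ELAVL4 were named after their values were seen. So were COL1A1, COL3A1, ACTA2, COL1A2 and MYH11 of the fibroblast and smooth muscle list. Other marker genes that did not pass are given as sums. The members and lists were chosen with earlier results of these data known. Alternatives were another pseudocount, 2 other filters, 3 rescalings, no variance trend, voom on recovered fragments (4454 genes passed), a replicate block, subtraction of the neighbours' median, and each library left out. Levels per principal transcript length and the CACGTG search were added after the data were seen. Promoter sequences came from RefSeq (GRCh38.p14). Protein sequences were not analysed here.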

Additional observations from a re-analysis of the deposited data

How the results depend on the processing

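Of 160 alternative fold changes of the 10 genes, 131 kept direction and side of the threshold, 20 lost the call, 8 gained one and 1 reversed: STMN2, at 0.16 with the regional median removed. STMN4, NEFH and GAP43 kept their calls in all 16 fits, and NEFM in 15. The number of the 10 that rose, 2 in the reported fit, was 1 without a filter, with libraries rescaled to the same FPKM total, with quantile normalization, rescaled without mitochondrial genes and without a variance trend, and ranged from 1 to 1 with each library left out. With the regional median removed it was 3 (STMN2, NEFL and GAP43). The number that fell, 4, ranged from 3 to 5. Over all genes, 3420 passed, and 2038 to 3048 with a library left out: leaving out shNC replicate 1 gave 2195, shNC replicate 2 gave 2038 and shMYT1 replicate 1 gave 2196. The cause was not tested, though such fits hold fewer libraries. The summed stathmin difference of -22.6 FPKM became -7.93 per principal transcript length, a scale that weights STMN1 more. Small untested share differences changed sign: INA, at 0.0844 percentage points, ranged from -0.163 (without shNC replicate 1) to 0.264, and PRPH, at 0.23, from -0.0153 (without shNC replicate 1) to 0.418. With a replicate block 3381 genes passed, and of the 10 genes 2 rose and 5 fell, STMN2 being added (limma adjusted p = 0.0426). Same-numbered libraries correlated at 0.033, 0.013 and 0.043 in their deviations from the group means. Each correlated best with its own number, though shNC replicate 2 was nearly as close to shMYT1 replicate 1 (0.008). Deviations from a mean of 3 libraries are tied to each other, so these small values cannot decide whether the libraries are paired. Of 286 alternative values for 18 named pathway genes, 283 kept their side and 3 lost it. Depth gives a floor of 0.140 to 0.170 FPKM for 3 fragments on 1 kb, which limits none of the 10 genes but covers counting error only.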
